A study of Mus musculus with 3 samples.

Results

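The genes described here are the nuclear-encoded genes of oxidative phosphorylation, the subunits of respiratory complexes I to IV, of the ATP synthase (complex V) and cytochrome c. They were taken by symbol: every gene of the Nduf subunit series, Sdha to Sdhd, every Uqcr gene, Cyc1, Cycs, Cox4 to Cox8 and every Atp5 gene, without pseudogenes. The rule found 86 of the 32288 genes counted, namely 37 of complex I, 4 of complex II, 9 of complex III, Cycs, 18 of complex IV and 17 of complex V. The rule reads symbols and no measured value. All 86 were annotated as protein coding and lay on 19 chromosomes, and all had at least 1 unique molecular identifier (UMI, 1 counted RNA molecule) in the cells kept.

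The study took wild-type (WT) mouse patellar tendon at 2 weeks (1 library) and at 20 weeks (2 libraries, replicates 1 and 2), digested it with collagenase, and removed hematopoietic and endothelial cells by flow sorting, per the series' design text. Single-cell libraries were made with the 10x Chromium 3' v3.1 kit. The labels name no strain, sex, treatment or number of animals, and do not say that the 20-week libraries came from separate animals, so p-values measure only the spread between libraries. The series title places the question in age-associated oxidative stress of tendon progenitors.

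Complexes I and II pass electrons from NADH and succinate to ubiquinone, complex III hands them to cytochrome c, and complex IV passes them to oxygen, while complex V uses the resulting proton gradient to make ATP. Most subunits are encoded in the nucleus and imported, and a few core subunits come from mitochondrial DNA. Several complex IV subunits have isoforms: Cox6a2, Cox7a1 and Cox8b are those of heart and skeletal muscle, and Cox4i2 and Ndufa4l2 are known from low-oxygen settings. Ndufa4, counted here with complex I by its symbol, is now known as a complex IV subunit.

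The libraries held 4767 cells (2-week), 606 cells (20-week replicate 1) and 1007 cells (20-week replicate 2), with 32775724, 1783623 and 5416562 UMIs. Median UMIs per cell were 6502, 2822 and 5116, so replicate 1 was the shallowest, and pairs of libraries shared 0 to 3 cell barcodes. Cells were clustered without the 86 genes and clusters were named from markers as tenocyte-like, progenitor-like, mural-like (vessel wall), myogenic-like, chondrocyte-like, osteogenic-like and muscle fibre-like, or left by number. The libraries stood apart in ways other than age. Summed over 6 endothelial markers the level was 5.05 to 23.1 CPM (UMIs of a gene per 1000000 UMIs), and over 7 macrophage markers 4.73 to 19.0 CPM, but 8 muscle fibre markers summed to 183, 8.97 and 4365 CPM, and 83 of the 90 muscle fibre-like cells came from 20-week replicate 2. Under a mitochondrial ceiling of 20%, a cluster was named B lineage, a hematopoietic type. It held 19 cells at 2 weeks, 0 in replicate 1 and 69 in replicate 2. In the main clustering, cluster 15 (Top2a, Mki67) kept its number and held 28, 0 and 67 cells in that order. Whether these are the same cells was not tested, and cluster 15 stayed in the all-cells values. Its median cell in replicate 2 had 2.47% of UMIs from the 86 genes, against 1.71% in progenitor-like cells. Xist was at 0.031, 499 and 20.9 CPM, and Ddx3y, on the Y chromosome, at 75.8, 0 and 73.7 CPM in the 2-week library, replicate 1 and replicate 2.

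Promoter windows were available in RefSeq (GRCm38.p6) for 68 of the 86 genes, and 4 are printed to set beside each other the genes with large values below. Sdhd and Ndufa4 were lower in both 20-week libraries, and Cox7a1 and Cox8b are muscle isoforms. Each runs up to 250 bases before the RefSeq start, 5′ to 3′ on the gene's strand. Any bases inside the gene as a second annotation (GENCODE) places it were left off. The printed Cox7a1 window thus ends 27 bases short of the RefSeq start and the Ndufa4 window 47 bases short. The windows are Sdhd chr9:50603850-50604099 (minus), Ndufa4 chr6:11907498-11907700 (minus), Cox7a1 chr7:30183921-30184143 (plus) and Cox8b chr7:140900447-140900696 (minus). Capitals mark a match to a searched motif on either strand.
Sdhd: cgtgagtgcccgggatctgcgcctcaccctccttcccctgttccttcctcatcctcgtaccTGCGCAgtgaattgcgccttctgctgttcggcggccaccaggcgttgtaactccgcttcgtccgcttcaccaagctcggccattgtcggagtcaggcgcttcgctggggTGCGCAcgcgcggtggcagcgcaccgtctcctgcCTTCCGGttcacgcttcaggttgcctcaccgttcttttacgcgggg
Ndufa4: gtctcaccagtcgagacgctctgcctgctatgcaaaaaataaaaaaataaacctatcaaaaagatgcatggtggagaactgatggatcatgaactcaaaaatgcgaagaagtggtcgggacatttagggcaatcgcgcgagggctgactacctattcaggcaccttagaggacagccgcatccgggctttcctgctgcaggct
Cox7a1: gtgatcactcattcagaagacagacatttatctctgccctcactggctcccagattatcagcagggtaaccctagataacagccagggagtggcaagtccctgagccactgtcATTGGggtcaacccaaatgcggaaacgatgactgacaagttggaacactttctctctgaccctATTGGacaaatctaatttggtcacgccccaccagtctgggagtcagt
Cox8b: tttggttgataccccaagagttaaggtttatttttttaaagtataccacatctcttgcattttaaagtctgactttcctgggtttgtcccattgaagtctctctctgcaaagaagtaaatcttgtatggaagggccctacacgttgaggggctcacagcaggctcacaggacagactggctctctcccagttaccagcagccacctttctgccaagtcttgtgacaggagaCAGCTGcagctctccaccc
Positions are counted from the RefSeq start, not from the end of the printed letters. The Sdhd window held the NRF1 half-site TGCGCA with its first base 189 and 80 bases before that start. It also held the ETS site CCGGAAG, here as its reverse, at 46 bases. The Cox7a1 window held CCAAT boxes at 137 and 74 bases, the Cox8b window the E-box CAGCTG at 19 bases, and the Ndufa4 window none of the 6 motifs. Over the 68 windows of 250 bases, TGCGCA occurred in 13 (19.1%, against 6.66% of 27025 windows of all genes) and CCGGAAG in 11 (16.2% against 7.05%). CCAAT occurred in 31 (45.6% against 34.5%), TATAAA in 7 (10.3% against 13.0%), CAGCTG in 6 (8.82% against 12.8%) and the YY1 core AAGATGG in 0 (against 4.53%). Both strands were searched and no motif contains another. A match describes the letters only.

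The 86 genes took a few percent of the RNA in most cell classes and far more in muscle fibre-like cells. Over all cells they made up 2.69% of UMIs at 2 weeks (exact 95% binomial interval 2.69% to 2.70%), 1.90% in 20-week replicate 1 (1.88% to 1.92%) and 2.31% in replicate 2 (2.29% to 2.32%). Intervals cover counting error only, and a share cannot tell less RNA of these genes from more RNA of others. Without the muscle fibre-like cells, replicate 2 stood at 1.73% and both 20-week libraries lay well under the 2-week library.

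Mural-like cells had the highest shares among the classes present in all 3 libraries. Their shares were 4.002%, 2.95% and 2.20% (2-week, replicate 1, replicate 2), and those of progenitor-like cells 2.40%, 2.04% and 1.77%. Tenocyte-like cells had 2.52% at 2 weeks and 1.69% in replicate 2, and myogenic-like cells 3.75% and 1.58%. Replicate 1 had under 20 cells of both classes and gives no value there. In each of these classes every 20-week value was under the 2-week value. Chondrocyte-like cells (2.02%) and osteogenic-like cells (2.35%) were measured at 2 weeks only, and muscle fibre-like cells, at 12.3%, in replicate 2 only.

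**Figure D1:**
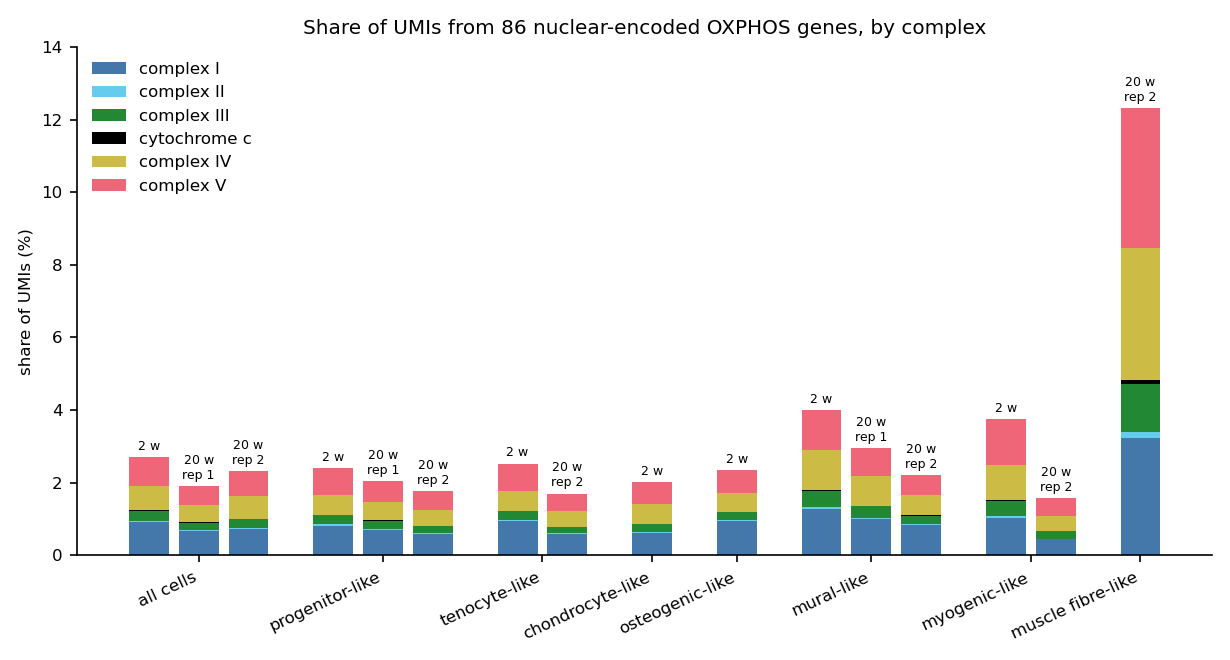
Share of UMIs (%) from the 86 genes for each cell class and library, stacked by complex. The bar of muscle fibre-like cells reaches 12.3%, and in every class with both ages the 2-week bar is the tallest.

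In progenitor-like cells the order of the libraries was the same in single cells brought to equal depth. With each cell thinned to 2000 UMIs, the median cell of the progenitor-like class had 2.30%, 2.00% and 1.75% of its UMIs from these genes in the 2-week library, replicate 1 and replicate 2. Mural-like cells had 3.85%, 3.45% and 2.40%, over 817 of 845, 25 of 53 and 20 of 39 cells deep enough to thin. Cluster 9, the pericyte-type part of that class, had 2.85%, 2.675% and 2.30% over 182, 8 and 17 cells. Complexes I, V and IV supplied most of the share: in progenitor-like cells at 2 weeks 0.814%, 0.736% and 0.547% of UMIs, against 0.249% for complex III and 0.0399% for complex II.

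The subunits encoded by mitochondrial DNA did not follow one pattern with the nuclear-encoded genes. Over the 12 of them that were summed (mt-Cytb is not among them), progenitor-like cells had 1.74%, 1.74% and 1.60% of UMIs, and mural-like cells 2.99%, 3.05% and 3.85%. Tenocyte-like cells had 2.06% at 2 weeks and 2.45% in replicate 2. In the mural-like and tenocyte-like classes no 20-week value was under the 2-week one, opposite to the nuclear-encoded share. Cells over 10% mitochondrial RNA had been removed, which bounds these values. Muscle fibre-like cells had 0.490% beside their 12.3% of nuclear-encoded RNA.

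Ndufa4l2 and Cox4i2, the alternative forms of Ndufa4 and Cox4i1, marked some clusters and were nearly missing from others. Ndufa4l2 (chr10:127514967-127517154) made up 88.6%, 86.05% and 98.5% of the UMIs of the Ndufa4 pair in the pericyte-type mural cluster (cluster 9) of the 2-week library, replicate 1 and replicate 2. In the Pi16 and Cd55 progenitor-like cluster (cluster 1) it made up 13.9%, 19.4% and 9.33%. The 2 clusters did not overlap in any library. At 2 weeks the osteogenic-like cluster had 86.8%, the Casq2 and Pln mural cluster (cluster 10) 80.1% and the Angptl7 and Kera tenocyte-like cluster (cluster 5) 76.8%. The Tnmd and Col22a1 tenocyte-like cluster (cluster 8) had 6.17%, and the contractile mural cluster (cluster 4) 26.4%. The tenocyte-like clusters 5 and 8 thus stood far apart. In the Spp1 and Chad cluster (cluster 6), present mainly at 20 weeks, Ndufa4l2 made up 87.5% and 73.4% in replicates 1 and 2.

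Single cells also differed in Ndufa4l2 between clusters. After thinning to 2000 UMIs, Ndufa4l2 was seen in 74.2% of 182 cells of cluster 9 at 2 weeks (81.9% without thinning, median 4544 UMIs). It was seen in 2.20% of 91 myogenic-like cells of the same library (6.06% without thinning, median 5384 UMIs). The level that free RNA gives was not estimated.

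Cox4i2 (chr2:152754173-152765037) followed a partly different order. It supplied 59.7% of the Cox4 pair's UMIs in chondrocyte-like cells and 39.2% in osteogenic-like cells at 2 weeks, and 28.2%, 14.6% and 60.3% in cluster 9 of the 3 libraries. In cluster 1 it gave 0.151% at 2 weeks (5 of its UMIs) and none at 20 weeks. A count of 0 allows a level of up to 7.78 CPM in progenitor-like cells of replicate 1 and 2.33 CPM in those of replicate 2. In chondrocyte-like cells the share of Cox4i2 in its pair thus exceeded that of Ndufa4l2 (40.8%), whereas cluster 9 at 2 weeks showed the reverse order.

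**Figure D2:**
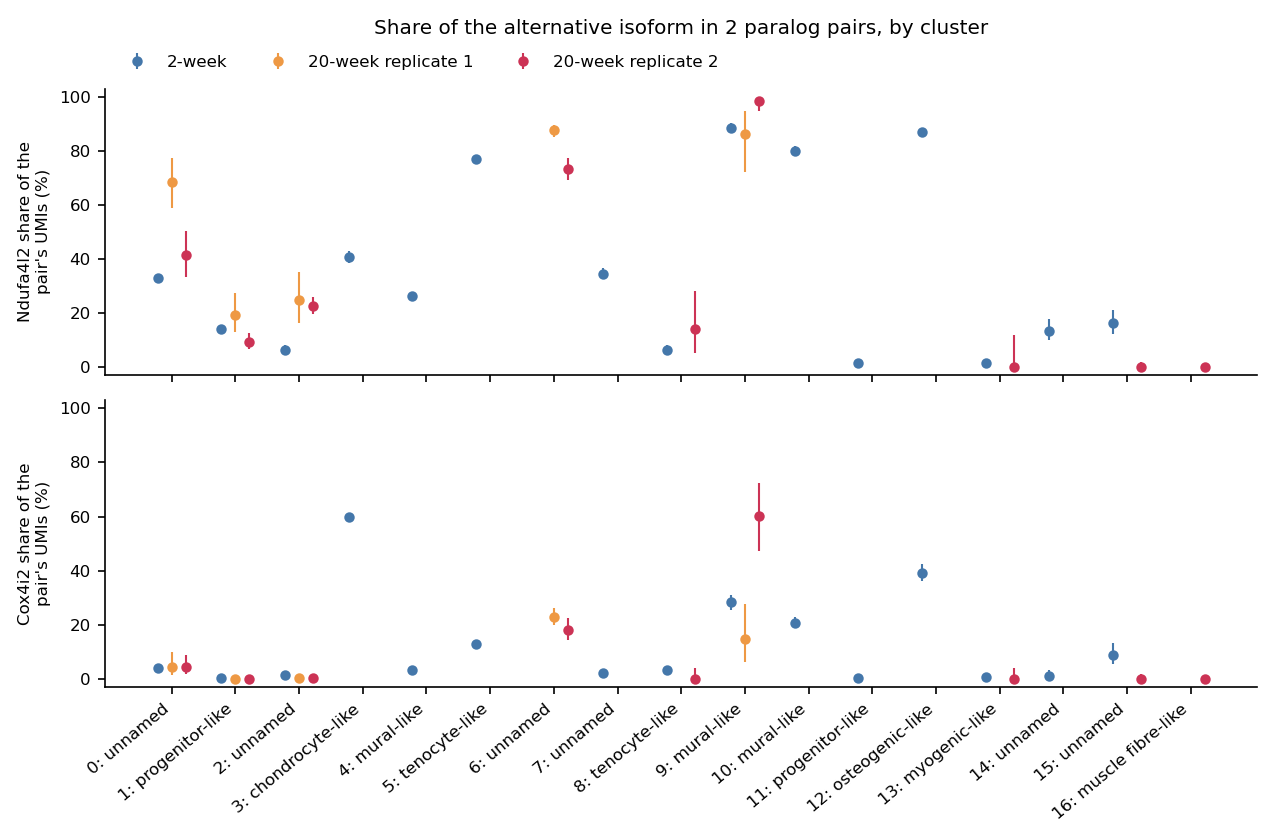
Share (%) of Ndufa4l2 in the UMIs of Ndufa4 plus Ndufa4l2, and of Cox4i2 in Cox4i1 plus Cox4i2, by cluster and library, with exact 95% binomial intervals. Cluster 9 is near the top for Ndufa4l2 in all 3 libraries, and cluster 3, the chondrocyte-like cells, is highest at 2 weeks for Cox4i2.

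Between cell classes, mural-like cells, summed over their clusters, had more RNA of 5 members than the stromal classes. UMI sums per library and class were compared by edgeR's quasi-likelihood test with library as a term, mural-like against the mean of tenocyte-like and progenitor-like. Of 82 members tested 5 were higher and 0 lower at a Benjamini-Hochberg adjusted p under 0.05, beside 9.44% higher and 10.8% lower of all 7952 genes tested. The members' median was 0.26 on the log2 scale, against -0.06 for all genes, and 60 of 82 lay above 0. The median was 0.11 without the 2-week library (44 of 79 above 0), 0.50 without 20-week replicate 2 (73 of 84) and 0.65 with stricter cell filters.

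Cox4i2 stood at 125, 99.3 and 529 CPM in mural-like cells and 0.934, 0 and 0 CPM in progenitor-like cells of the 2-week library, replicate 1 and replicate 2, so these 2 classes did not overlap (log2 difference from the stromal mean 5.17, SE 0.73, edgeR adjusted p = 0.00023). The mural-like clusters were unlike each other. At 2 weeks clusters 9, 10 and 4 gave 286, 322 and 124 of the class's 732 Cox4i2 UMIs, though cluster 4 held 456 of its 845 cells. Cluster 4 had 124 among 3707748 UMIs, a lower level than tenocyte-like cluster 5 with 342 among 4475278. In replicate 2, 38 of 41 came from cluster 9. Ndufa4l2 stood at 730, 524 and 1831 CPM in mural-like cells and at 75.2, 64.9 and 30.3 CPM in progenitor-like cells. Tenocyte-like cells overlapped the mural-like range at 2 weeks with 1082 CPM but had 31.6 CPM in replicate 2 (2.71, SE 0.78, adjusted p = 0.0259 by edgeR). The other 3 were Cox6b2, an isoform known from testis (2.28, SE 0.64), Sdhc, a membrane anchor of complex II (1.00, SE 0.27), and Uqcr11, a small complex III subunit (0.97, SE 0.30). Their adjusted p-values by edgeR were 0.0232, 0.0177 and 0.0366. The result depended on the library: without the 2-week library Cox4i2 and Ndufa4l2 were called and no other member (6.01% of all genes were higher), and without 20-week replicate 2 the count was 26 (14.2%). Over the 9 alternatives that keep all libraries, Cox4i2 was called in 9, Sdhc and Ndufa4l2 in 8 each, Cox6b2 in 7 (not by DESeq2) and Uqcr11 in 4, where its adjusted p by edgeR reached 0.0998 (no low-count filter).

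Myogenic-like cells, which express Pax7 and Myod1, differed from the stromal classes in 6 members. Of 82, 5 were higher and 1 lower by the same test, beside 7.0% higher and 8.79% lower of all genes. The higher ones were Cox7a2l, a supercomplex assembly factor (log2 difference 1.24, SE 0.30), Uqcrfs1, the Rieske iron-sulfur protein of complex III (1.11, SE 0.30), Cox5a (1.04, SE 0.32), Ndufc2 (1.03, SE 0.29) and Atp5a1, the ATP synthase alpha subunit (0.94, SE 0.30). Cox5a stood at 581 CPM in myogenic-like cells at 2 weeks and 177 CPM in replicate 2, against 236 and 110 CPM in progenitor-like cells of the same libraries, so within each library the myogenic-like cells were the higher. Ndufa4l2 was the lower one, with 10.5 CPM at 2 weeks and 0 UMIs in replicate 2, a floor of 21.3 CPM. Its fitted log2 difference was -4.88 (SE 1.38, edgeR adjusted p = 0.0302), which with a library at 0 is no bound. Without the 2-week library no member was called in this comparison, without 20-week replicate 1 only Ndufa4l2, and without replicate 2 the count was 10 (9 higher and 1 lower, beside 6.82% and 8.83% of all genes).

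**Figure D3:**
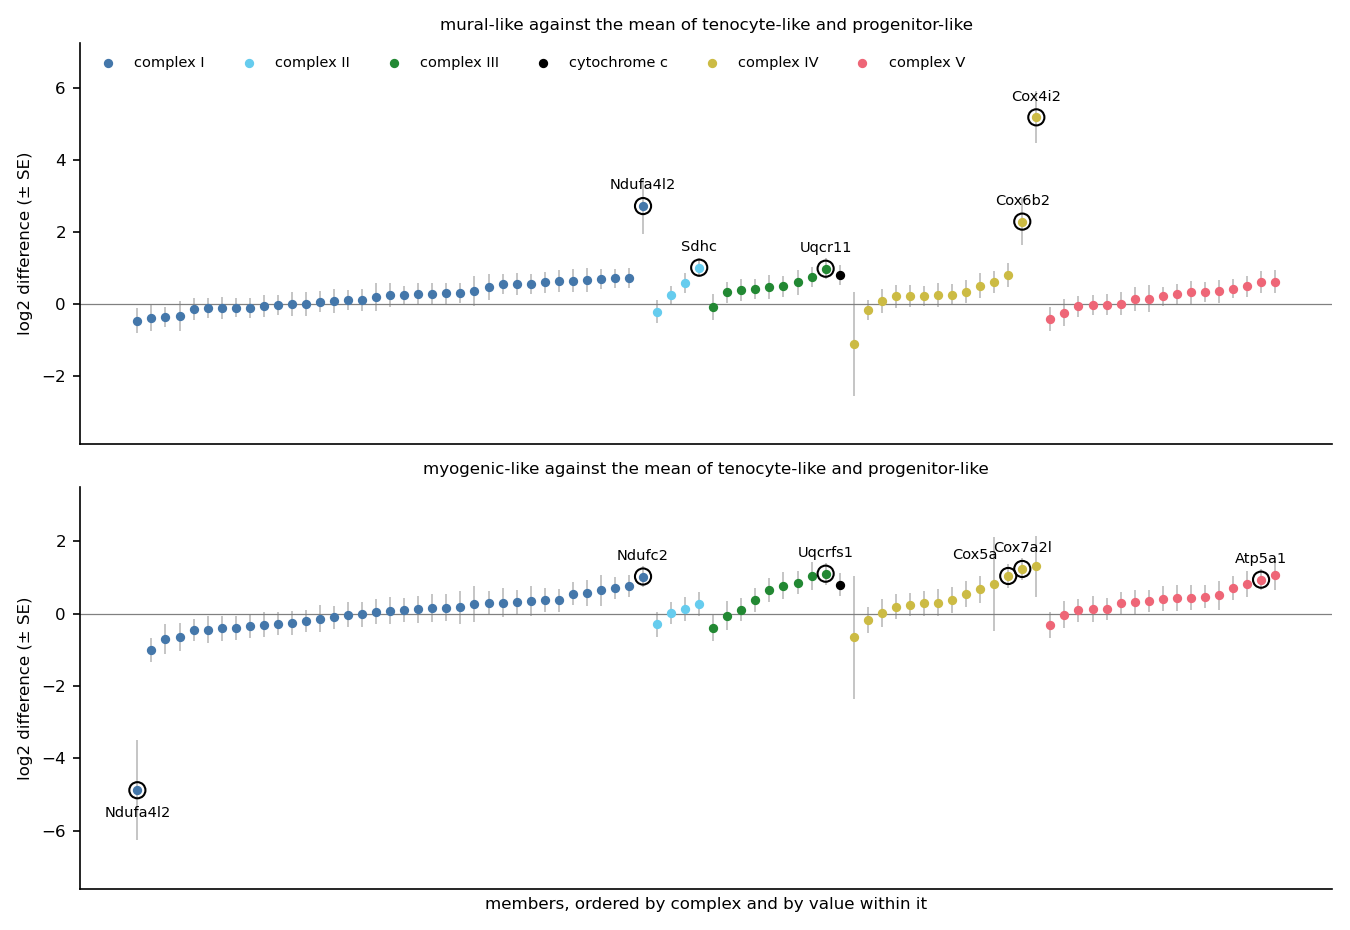
Log2 difference (± SE) of each of 82 members in mural-like (top) and myogenic-like cells (bottom) from the mean of tenocyte-like and progenitor-like cells, coloured and ordered by complex; rings mark members past the adjusted threshold. Most points lie within 1 log2 unit of 0, and Cox4i2, Ndufa4l2 and Cox6b2 stand out in the top panel.

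Tenocyte-like and progenitor-like cells differed in 2 of 82 members, Cox4i2 and Cox8b, both higher in tenocyte-like cells (4.58% of all genes were higher and 5.22% lower). Both rested on the 2-week library. There Cox4i2 had 63.1 CPM in tenocyte-like and 0.934 CPM in progenitor-like cells, and in replicate 2 it was at 0 in both (edgeR log2 difference 6.17, adjusted p = 0.00231). Cox8b had 11.3 and 0 CPM at 2 weeks and 21.1 and 3.10 CPM in replicate 2 (4.99, adjusted p = 0.0250 by edgeR). Without the 2-week library no member was called and the difference of Cox4i2 was -0.25, and without replicate 2 the count was 6 (17.5% of all genes).

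With age, most members were lower in both 20-week libraries, and in none of the 5 tests across genes did a single member pass the adjusted threshold. Age was tested as 20-week minus 2-week by edgeR's quasi-likelihood test on summed UMIs, with 1 library against 2, so the 2-week group has no spread of its own and borrows that of the 20-week pair. The progenitor-like, mural-like and cluster 0 tests rest on the spread shared across genes. Of the members tested, 0 of 81 were called in progenitor-like cells (3.48% of all genes were), 0 of 84 over all cells (0.0832%), 0 of 78 in mural-like cells (0.0766%), 0 of 81 in cluster 0 (2.45%) and 0 of 80 in cluster 2 (2.66%). Clusters 0 (Igfbp3, Sfrp2) and 2 (Cxcl14, Dpep1) are unnamed stromal clusters found in all libraries. Members with an unadjusted edgeR p under 0.05 numbered 3, 1, 1, 1 and 8 in that order. Among all genes tested these were 978 of 9632, 1143 of 13224, 86 of 2612, 467 of 5625 and 1122 of 8632. DESeq2 also called 0 members in each. On simulated data with a true log2 change of 1.5 in better-expressed genes, the age test recovered 6 of 100 genes over all cells and 23 of 100 in progenitor-like cells.

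In progenitor-like cells the median log2 change of the 81 members was -0.36 (0.778 times), against 0.03 for all 9632 genes tested, and 67 lay below 0. Both 20-week libraries were under the 2-week library for 59 of 81, beside 32.9% of all genes, and above it for 6, beside 30.0%. The 2 replicates differed: against the 2-week library the median was -0.12 with replicate 1 alone and -0.56 with replicate 2 alone. In the main progenitor-like cluster alone the median was -0.42.

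Cluster 2 showed the same direction with larger values: its median was -0.73 against 0.05 for all genes, 74 of 80 members lay below 0, and 70 were lower in both 20-week libraries (32.4% of all genes) against 4 higher in both (35.3%). In cluster 0 the median was -0.52 and 58 of 81 members were lower in both (32.9%) and 4 higher in both (26.3%). Over all cells the median was -0.38, 58 of 84 members were lower in both (33.9%) and 8 higher (28.2%). Without the muscle fibre-like cells that median was -0.53.

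Mural-like cells had a median of -0.81 against 0.06, and 61 of 78 members were lower in both 20-week libraries (27.5%) and 3 were higher in both (29.4%). The class was made up differently at the 2 ages: cluster 9, the pericyte-type cells, gave 204 of 845 mural-like cells at 2 weeks, 27 of 53 in replicate 1 and 35 of 39 in replicate 2. Within cluster 9 alone the median was -0.49. With only replicate 2 set against the 2-week library, the median of the whole class was -1.57, and with only replicate 1 it was -0.64.

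In tenocyte-like cells only replicate 2 could be set against the 2-week library, with no replicate check and no test. There 73 of 83 members lay below 0, 34 were at least 2-fold lower (24.2% of all genes) and 1, Cox6b2, was at least 2-fold higher (13.7%). The median was -0.86 against -0.16 for all genes. The clusters behind the class differed, mostly cluster 5 at 2 weeks and cluster 8 in replicate 2. With called doublets kept the class took in the Spp1 and Chad cluster (cluster 6; 231 cells of replicate 1, 111 of replicate 2 and 23 of the 2-week library), so a test could be fitted but on another make-up of cells. Of 80 members 12 were then at least 2-fold lower and 2, Sdhd and Ndufa3, passed (8.94% of all genes did).

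Complexes III and V had nearly all of their genes below 0 in every set of cells tested, and most members of the other complexes lay there too. Of all members, 6 of 78 lay above 0 in mural-like cells and 6 of 80 in cluster 2. Among all genes tested these were 1390 of 2612 and 4524 of 8632. In progenitor-like cells the median log2 change was -0.34 for complex I, -0.23 for complex II, -0.36 for complex III (8 of 9 below 0), -0.45 for complex IV and -0.41 for complex V, where 16 of 17 genes lay below 0. Over all cells, in mural-like cells and in cluster 2 all 17 genes of complex V and all 9 of complex III lay below 0, with medians of -0.46, -0.93 and -0.79 for complex V and -0.31, -0.75 and -0.74 for complex III. In cluster 0 these were 16 of 17 and 9 of 9. The 4 genes of complex II varied most between sets, with medians from -1.03 in cluster 0 to -0.23 in progenitor-like cells. Cycs, the mobile electron carrier, had log2 changes of 0.03 over all cells, -0.19 in progenitor-like and -1.02 in mural-like cells, none past the test.

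**Figure D4:**
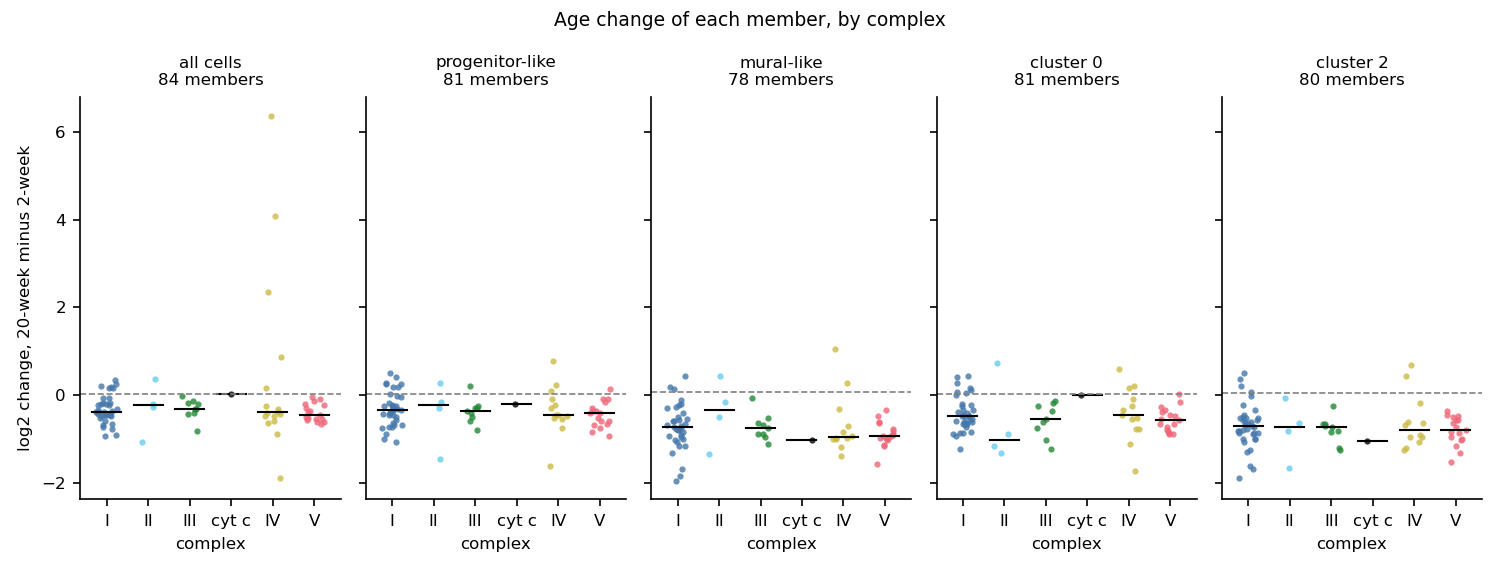
Log2 change from 2 to 20 weeks of each member tested, by complex, in 5 sets of cells; black bars are medians over the members of a complex and the dashed line is the median of all genes tested. The complex V points lie below the dashed line in mural-like cells and cluster 2, and the 3 high complex IV points over all cells are muscle isoforms.

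Sdhd, the small membrane anchor of complex II, had the lowest p of the members in progenitor-like cells. It stood at 120 CPM in the 2-week library, 25.9 CPM in replicate 1 and 58.2 CPM in replicate 2 (log2 change -1.46, SE 0.47, edgeR adjusted p = 0.0559). Both 20-week libraries were under the 2-week library, as they were for 32.9% of all genes tested in these cells. In cluster 2 Sdhd stood at 97.8, 15.1 and 46.1 CPM (-1.66, SE 0.51, adjusted p = 0.0659 by edgeR), and in cluster 0 at 83.2, 24.9 and 37.8 CPM. In each of these sets replicate 1 was the lowest library, but on few UMIs. Sdhd had 35 UMIs over all cells of replicate 1, and its cluster 0 value there is 3 UMIs. The order of the 2 replicates was not tested. Sdhd passed when doublets were kept (adjusted p = 0.0320) or clusters were cut at resolution 1.0 (adjusted p = 0.0249), within a range of 0.0249 to 0.999 by edgeR or DESeq2 over its 10 alternatives. Under both settings most 20-week progenitor-like cells came from a cluster with few 2-week cells (22, 117 and 481 cells with doublets kept and 11, 150 and 469 at resolution 1.0), so these tests compare other cells. Its partner Sdha, the flavoprotein that oxidises succinate, went the other way in value: 59.6, 62.3 and 82.2 CPM in progenitor-like cells, where both 20-week libraries were the higher (no call).

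Ndufa4 was among the 3 lowest members in all 5 sets of cells. In progenitor-like cells it stood at 594, 270 and 294 CPM (log2 change -1.07, SE 0.55, edgeR adjusted p = 0.487) and in cluster 2 at 750, 169 and 257 CPM (-1.88, SE 0.71, adjusted p = 0.182 by edgeR). Both 20-week libraries lay close together and far under the 2-week library. Ndufa4l2 in progenitor-like cells stood at 75.2, 64.9 and 30.3 CPM, so in these cells the alternative form was not higher where Ndufa4 was lower. In cluster 2 it stood at 48.9, 55.5 and 74.6 CPM.

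A few complex I genes had higher values at 20 weeks. Ndufa6, an accessory subunit, stood at 186, 244 and 286 CPM in progenitor-like cells, and Ndufs1, the large iron-sulfur subunit of the electron input module, at 27.4, 33.7 and 39.6 CPM. Both 20-week libraries lay above the 2-week library for both genes, and neither passed (log2 changes 0.51, SE 0.54, and 0.42, SE 0.49). Cox7a2l had the highest change, 0.78, but through 1 library: 168 CPM at 2 weeks, 402 CPM in replicate 1 and 165 CPM in replicate 2. Cox6b2 had the lowest, -1.61, from 11.7, 7.78 and 2.33 CPM, where each 20-week value is 3 UMIs and the change was -0.43 with replicate 1 alone and -2.18 with replicate 2 alone.

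Of the anchors of the other complexes, some lay between the 20-week libraries and some above both in progenitor-like cells, and none passed the test. Atp5b, the catalytic subunit of ATP synthase, stood at 311, 381 and 293 CPM, and Cox4i1 at 647, 937 and 557 CPM. For both, replicate 1 was above and replicate 2 below the 2-week library. Cox5a, a core-associated complex IV subunit, stood at 236, 169 and 110 CPM, and Atp5g1, which encodes the c-ring of ATP synthase, at 419, 304 and 161 CPM, both lower in each 20-week library (log2 changes -0.76, SE 0.51, and -0.84, SE 0.54, not called). Cox8a, the widespread form of that complex IV subunit, stood at 777, 856 and 781 CPM.

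The muscle isoforms were the highest age changes over all cells, and their values came from the fibre-like cells of 1 library. Cox6a2 (chr7:128205435-128206387) stood at 2.38 CPM at 2 weeks, 0.561 CPM in replicate 1 and 439 CPM in replicate 2. Cox8b (chr7:140898945-140900446) stood at 6.83, 2.80 and 251 CPM, and Cox7a1 (chr7:30184144-30186078) at 7.81, 1.12 and 84.2 CPM. Replicate 2 was far above both others and replicate 1 was the lowest (log2 changes 6.37, SE 2.84; 4.08, SE 2.01; 2.36, SE 1.55; none called). Without the muscle fibre-like cells replicate 2 had 10.3, 9.76 and 5.86 CPM of Cox6a2, Cox8b and Cox7a1, and the log2 change of Cox7a1 was -0.90.

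Muscle fibre-like cells used the muscle forms to different extents. Cox6a2 made up 99.6% of the Cox6a pair's UMIs there (exact 95% interval 99.3% to 99.8%), with 7929 CPM against 30.7 CPM of Cox6a1. Cox8b made up 87.8% of its pair, and Cox7a1 44.6%, with 1453 CPM beside 1804 CPM of Cox7a2. Acta1, skeletal actin, stood at 42494 CPM in the same cells. In myogenic-like cells Cox6a2 was at 3.51 CPM at 2 weeks and at 0 in replicate 2, so the precursors did not share the fibre pattern. Cox7b2 and Cox8c, isoforms known from testis, had 6 UMIs and 1 UMI over all 2-week cells and 0 in both 20-week libraries, which allows up to 1.68 CPM in replicate 1 and 0.554 CPM in replicate 2.

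**Figure D5:**
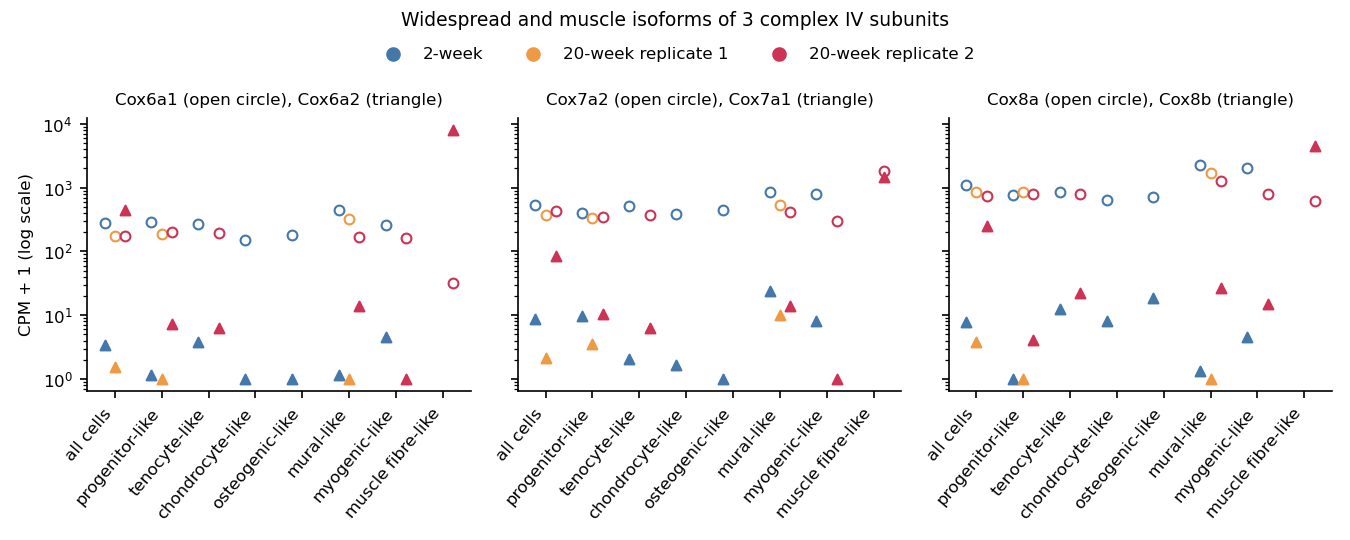
CPM + 1 on a log scale of the widespread form (open circles) and the muscle form (triangles) of Cox6a, Cox7a and Cox8, by cell class and library. The muscle forms exceed or approach the widespread forms in muscle fibre-like cells alone among the classes, and Cox6a2 also over all cells of 20-week replicate 2.

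Whether the age change differed between tenocyte-like and progenitor-like cells was tested as an interaction, and 0 of 83 members passed (0.194% of all genes did). The tenocyte-like side rests on 1 library at each age, so its age change has no replicate. The test has 1 residual degree of freedom and rests on the spread shared across genes, so its SE and p-values do not measure spread between tenocyte-like libraries. By edgeR 3 members had an unadjusted p under 0.05, beside 384 of all 9296 genes tested, and DESeq2 called 0 members. Ndufa4l2 came nearest, with a difference of age changes of -4.96 (SE 1.35, adjusted p = 0.0825 by edgeR). The value was -0.37 with doublets kept and -0.88 at resolution 1.0, but under both settings most 20-week tenocyte-like cells belonged to the Spp1 and Chad cluster, which is rich in Ndufa4l2 (above), and the progenitor-like class also held other clusters. Within cluster 8 alone Ndufa4l2 stood at 36.8 CPM at 2 weeks and 33.2 CPM in replicate 2.

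Other mitochondrial lists are given for the progenitor-like age comparison. The mitochondrial ribosome genes had a median log2 change of -0.36 with 65 of 77 below 0 and none called, the same median as the members. Assembly factors of the complexes had -0.25 (23 of 38 below 0, none called), and the 12 mitochondrial-DNA-encoded subunits -0.04 (8 of 12, none called). Of 17 tricarboxylic acid cycle genes 1 was called lower, beside 1.83% of all genes. It was Idh2, a mitochondrial NADP-linked isocitrate dehydrogenase (-1.98), and the median of the 17 was -0.17. Of 15 glycolysis genes 1 was called higher, beside 1.65% of all genes. It was Hk2, a hexokinase (1.98), and the median of the 15 was -0.18. The 9 regulators of mitochondrial gene expression tested had a median of 0.18, with 7 above 0 and none called.

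Members with shorter transcripts had the lower median in each set of cells compared except mural-like cells (-0.79 under 1000 nucleotides and -0.88 for longer ones). Spearman's correlation of change with length was 0.242 over the mural-like members, and it was lowest, 0.084, in tenocyte-like cells. Progenitor-like members with transcripts under 1000 nucleotides had a median of -0.40 (61 genes) and longer ones -0.24 (20 genes). All genes had -0.13 and 0.06 in the same length classes, and in cluster 2 the members had -0.78 and -0.68 against -0.26 and 0.12. The members lay under all genes of their own length class in progenitor-like cells and in cluster 2. The part of RNA quality in the age values was not tested. The parts of depth, sex and the muscle RNA in replicate 2 were not tested either, beyond the values above. In progenitor-like cells the 8 muscle fibre markers summed to 15.4, 5.19 and 119 CPM.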

How the data were processed

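The 3 single-cell libraries were analysed. The deposited files hold raw UMI counts per gene and barcode, made by the authors with Cell Ranger 6.1.2 on mm10, per the submitters' processing notes. Cells needed 500 genes, 1000 UMIs and at most 10% mitochondrial UMIs. Simulated-doublet scores removed the top 0.8% per 1000 barcodes. Clustering used scanpy 1.11.5 (2000 variable genes, 30 components, 15 neighbours, Leiden with python-igraph 0.11.9, resolution 0.5), with the 86 genes left out. A cluster was named from at least 2 markers of one type among its 10 leading genes and 3 detected, and otherwise kept its number. Counts were summed per library and class with 20 or more cells.

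Sums were tested on all genes with edgeR 4.0.16 (R 4.3.3; TMM scaling, low-count filter, quasi-likelihood, Benjamini-Hochberg), with DESeq2 1.42.0 as an alternative. CPM in the text are unscaled and not divided by length, since a 3′ molecule counts once. The SE is the log2 change over the square root of F. Comparisons with no test used a prior count of 2. Near-identical gene copies are told apart only as the authors' counting did. The planned tenocyte-like age test could not be fitted, because replicate 1 held 12 such cells. The tests were checked on simulated data, with 100 genes changed at each size. The changed genes were drawn only from those above a set mean CPM, and the spread followed the trend over genes of like level. Recovery of low-count members, such as Cox6b2 in progenitor-like cells, was therefore not simulated. At a true log2 change of 1.5 the age test recovered 6 over all cells and 23 in progenitor-like cells. At 3 it recovered 58 and 94. The mural-like comparison with the stromal classes recovered 58 and 100 at these sizes. False calls numbered 4, 5 and 7 in the 3 comparisons. Changes smaller than 1.5 were not simulated.

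Named genes were all members called in a comparison, or the 3 lowest and 3 highest where none was, plus fixed isoform and anchor genes. Members, lists and rules were chosen with earlier results of these data known.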

Additional observations from a re-analysis of the deposited data

Results flagged for a closer look

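For 2 genes both 20-week libraries lay above the 2-week library in one set of cells and below it in another, and these differences were not tested. The log2 age change of Ndufa4l2 was -0.75 in progenitor-like cells and 0.36 in cluster 2, a difference of -1.11. The change of Cox8a was 0.09 in progenitor-like cells, -0.70 in mural-like cells and -0.62 in cluster 2, so that the first exceeded the others by 0.78 and 0.70. In progenitor-like cells replicate 2 was barely above the 2-week library for Cox8a, so the positive sign there rests on replicate 1. The mural-like values also hold the shift from contractile to pericyte-type cells between the ages.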

How the results depend on the processing

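No paired analysis was possible because the 2-week group is a single library, so the ages share no more than 1 replicate number. Beside the leave-one-out settings, 74 of the counts and shares kept within their limits and 20 moved, and 335 values of single genes kept their call and direction, 28 lost a call or its side of the threshold, 7 gained one and 3 changed sign. Members called by age were 4 over all cells with no low-count filter, beside 3.33% of all genes. In progenitor-like cells there were 2 with called doublets kept (3.97% of all genes) and 3 with clusters cut at resolution 1.0 (4.43%). Cluster 2 had 1 with thinned sums (3.67%). Tenocyte-like members at least 2-fold lower, 34 as reported, were 16 with thinned sums, 12 with doublets kept and 9 at resolution 1.0. Called members of the myogenic-like comparison were 1 with no filter (9.51% of all genes), 3 with thinned sums (21.2%) and 3 at resolution 1.0 (13.2%). In tenocyte-like against progenitor-like cells they were 1 with DESeq2 (7.71% of all genes), 4 with no filter (8.34%) and 0 with thinned sums (8.17%). Without ribosomal, mitochondrial, haemoglobin and collagen genes 1 member was called there (10.2%). Leaving out 1 library at a time gave 2 to 26 members for mural-like, 0 to 10 for myogenic-like and 0 to 6 for tenocyte-like against progenitor-like cells.

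The log2 change of Cox7a1 over all cells reversed to -0.90 without muscle fibre-like cells. Leaving out 1 library at a time, Cox4i2 in tenocyte-like against progenitor-like cells ranged from -0.25 (without the 2-week library, reversed) to 6.46. Its interaction reversed to 0.20 with doublets kept and 0.34 at resolution 1.0, settings under which the Spp1 and Chad cluster (cluster 6), which holds Cox4i2, joins the tenocyte-like class and the progenitor-like class also changes. With ribosomal, mitochondrial, haemoglobin and collagen genes out of the total, the members' share over all cells was 3.63%, 2.47% and 2.84% (2-week, replicate 1, replicate 2). With a mitochondrial ceiling of 20% it was 2.70% at 2 weeks, and the mitochondrial-DNA-encoded share was 2.14% at 2 weeks and 1.61% in replicate 2. The cause of these shifts was not tested. Over all genes, edgeR called 11 and DESeq2 201 by age over all cells, and 335 and 94 in progenitor-like cells. In cluster 0 edgeR called 138 genes, DESeq2 54, and edgeR with DESeq2's size factors 5. Without 1 of the 20-week libraries the age comparisons have no test, and stricter cell filters gave no mural-like age value and no interaction. The removal of muscle fibre-like cells, the single-cluster values, the length split and the cluster 0 and 2 comparisons were chosen after seeing the data. Depth limits most the values of replicate 1, and in mural-like cells those of replicate 2 (77554 UMIs, against 110763 in replicate 1).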
